A study of Drosophila melanogaster with 6 samples.

Results

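HIP and HIP-R are neighbouring paralogs on the X chromosome of Drosophila melanogaster, named for the Hsc70-interacting protein Hip. They are described here with 6 genes of the Hsp70 and Hsp90 chaperone machinery: Hsc70-4, Hsc70-3, Hsc70-5, Hop, Hsp83 and STUB1. All 8 were found by gene symbol among the 17457 features of 1 deposited table of polyA RNA-seq from ovaries. HIP and HIP-R were chosen by their own differences between the groups in these samples, so those differences are given as a description, with no test. The other 6 were added for their function.

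The Sam-S overexpression group held 3 ovary samples from flies carrying UASp-Sam-S crossed with the nanos-gal4 driver. The control group held 3 ovary samples from nanos-gal4 flies crossed with flies that had the empty docking site of the construct. Sam-S encodes S-adenosylmethionine synthetase, nanos-gal4 is active in germline cells, and whole ovaries also hold somatic follicle cells and muscle. The labels give neither fly ages nor the number of ovaries per sample, and they do not say whether the stocks crossed to the driver shared an X chromosome. Each of 3 batches held 1 overexpression and 1 control sample.

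Hsp70 proteins bind unfolded stretches of other proteins and release them in a cycle driven by ATP. J-domain proteins stimulate ATP hydrolysis, nucleotide exchange factors release ADP, and in mammals Hip (ST13) binds the ATPase domain and stabilises the ADP-bound form. Hop links Hsp70 to Hsp90 through its TPR repeats, and STUB1, known in mammals as CHIP, is a ubiquitin ligase that marks chaperone clients. In the fly ovary Hsp83 RNA is a well-known maternal product that nurse cells pass to the egg.

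The values are TPM, an abundance per transcript length scaled to the same total in each sample, so levels of different genes can be compared, while the sequencing depth is unknown. Sam-S stood at 1518 ± 67.5 TPM in overexpression ovaries and at 497.5 ± 14.5 TPM in controls (SD, n = 3 each), as the labels state. The labelled tissue also fitted its markers. All 6 germline markers (vas, nos, aub, ovo, otu and grk) and all 6 follicle cell markers (tj, Fas3, Yp1, Yp2, Yp3 and Vm26Aa) reached at least 1 TPM in every sample. The germline markers summed to between 1169 and 1199 TPM in overexpression ovaries, against 1151 to 1258 TPM in controls. Within that sum aub (mean 98.1 against 86.6 TPM) and grk (26.1 against 22.1 TPM) were higher with overexpression, without overlap. The groups of vas, nos, ovo and otu overlapped, and 11.9% of all tested features had groups without overlap. The sum of the follicle cell markers lay between 9108 and 14800 TPM in overexpression ovaries and between 9901 and 11684 TPM in controls. Its yolk protein genes differed in direction, all with overlap. Mean levels with overexpression and in controls were 2635 and 2068 TPM for Yp1, 3134 and 2398 TPM for Yp2, and 574 and 717 TPM for Yp3. The 3 muscle markers (Mhc, up and Act57B) summed to between 89.7 and 138.9 TPM with overexpression and between 96.8 and 131.4 TPM in controls. All 4 testis markers were at 0, and of the 3 fat body markers 2 were at 0 in every sample and the other reached at most 0.03 TPM. In whole ovaries, fewer cells of a type and less RNA per cell cannot be told apart.

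The pair lies in a tandem arrangement. HIP-R (FBgn0029676) spans X 3789969 to 3792477 and HIP (FBgn0260484) spans X 3799150 to 3801570, both on the plus strand, with 6672 bases between them. Ensembl's BDGP6.54 annotation gives all 8 genes the same coordinates as the deposited table. In it, both genes have 4 coding blocks of 173, 122, 647 and 189 bases. The introns between these blocks measure 80, 217 and 74 bases in both genes. Each coding block of HIP starts exactly 9083 bases after its counterpart in HIP-R, and each gene encodes 377 codons. The transcripts differ at their ends: exonic length is 2050 bases for HIP, which has 1 annotated transcript, and 2138 bases for HIP-R, which has 3.

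The repeat is not limited to the pair. Downstream of each gene lies a minus-strand long noncoding RNA of 428 bases, CR44117 after HIP-R and CR44118 after HIP, with starts 9093 bases apart. Each of these overlaps the start of a forkhead gene, Crg-1 after HIP-R and fd3F after HIP. Crg-1 (FBgn0021738) begins 746 bases beyond the end of HIP-R and occupies most of the interval between the pair, together with the pseudogenes CR42499 and CR33221. No sequence was compared here, so how many reads fit both HIP and HIP-R is unknown, and the submitters' processing notes, which name STAR as a tool, do not say how such reads were assigned. The level of each of the pair alone is therefore uncertain. Their sum is more certain only if such reads were divided between the pair and none were dropped.

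**Figure D1:**
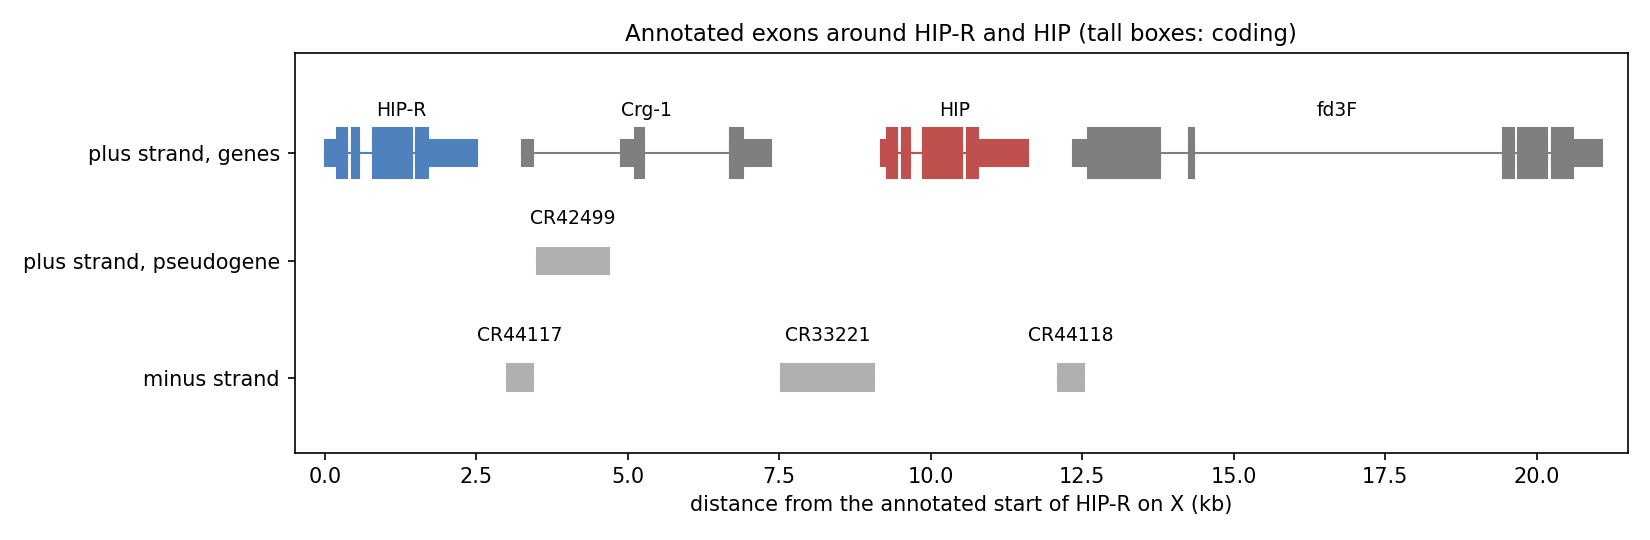
Annotated exons around HIP-R and HIP, drawn to scale as distance from the HIP-R start in kb, with tall boxes for coding sequence, thin boxes for noncoding exons and separate rows for the plus strand genes, a plus strand pseudogene and the minus strand. The 4 coding blocks of HIP-R recur in HIP at the same sizes and spacing, and Crg-1 lies between them.

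HIP was higher in Sam-S overexpression ovaries. Its level was 217.94, 232.24 and 212.31 TPM in overexpression replicates 1, 2 and 3, against 139.12, 121.26 and 141.77 TPM in control replicates 1, 2 and 3. Every overexpression sample exceeded every control sample, and the lowest overexpression value stood above the highest control value by more than either group's whole range. The means were 220.8 ± 10.3 TPM and 134.05 ± 11.2 TPM in overexpression and control ovaries (SD, n = 3 each), a ratio of 1.65.

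HIP-R was lower. Its level was 163.19, 164.62 and 178.68 TPM in the overexpression replicates, against 285.67, 266.57 and 280.38 TPM in the control replicates. The groups did not overlap, and no overexpression sample came near the lowest control. The means were 168.8 ± 8.56 TPM and 277.5 ± 9.86 TPM in overexpression and control ovaries (SD, n = 3 each), so HIP-R was at 60.8% of its control level with Sam-S overexpression.

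The sizes of these opposite differences were close on the log scale. The log2 difference, overexpression minus control on log2(TPM + 1), was 0.72 for HIP and -0.71 for HIP-R. Within batches 1, 2 and 3 the log2 ratio of TPM was 0.65, 0.94 and 0.58 for HIP and -0.81, -0.70 and -0.65 for HIP-R. In the authors' deposited table the log2 fold change was 0.73 for HIP and -0.72 for HIP-R. Both genes passed the limma threshold of an adjusted p under 0.05, and that is the measure on which the pair was chosen. Of the 7855 features tested, 22 passed (0.28%), 14 of them higher (0.178%) and 8 lower (0.102%), or 11 higher and 5 lower when batch was a block. That total was 11 without control replicate 1 and 12 without control replicate 3. Nothing is read from the pair's calls against these shares.

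The summed level of the pair differed less between groups than either gene. This follows from the opposite differences of the genes, which were chosen for those differences. The HIP plus HIP-R sum was 381.13, 396.86 and 390.99 TPM in overexpression replicates 1, 2 and 3, against 424.79, 387.83 and 422.15 TPM in the control replicates. The groups overlapped, because control replicate 2 lay below overexpression replicates 2 and 3. The mean sum was 389.7 ± 7.95 TPM with overexpression and 411.6 ± 20.6 TPM in controls (SD, n = 3 each), so overexpression ovaries held 94.7% of the control sum. HIP was 86.8 TPM higher with overexpression, and HIP-R decreased by 108.7 TPM. Within batches 1, 2 and 3 the log2 ratio of the sum was -0.16, 0.03 and -0.11, so its direction differed between batches. The mean log2 difference of -0.08 is to be set against a replicate SD of 0.06, pooled over both groups.

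The composition of the sum separated the groups, which also follows from the differences for which the pair was chosen. HIP made up 57.2%, 58.5% and 54.3% of it in overexpression replicates 1, 2 and 3, against 32.8%, 31.3% and 33.6% in the control replicates. HIP was the larger part in every overexpression sample and the smaller part in every control sample. The mean share was 56.7% ± 2.16 with overexpression and 32.5% ± 1.17 in controls (SD, n = 3 each), 24.1 percentage points apart. Expressed as a ratio, HIP over HIP-R was 1.31 ± 0.11 in overexpression ovaries and 0.48 ± 0.03 in controls (SD, n = 3 each). A sum of TPM adds up transcripts if each gene was divided by its own length, and the lengths that the authors used are not given. In the authors' deposited table the mean log2 CPM was 7.80 for HIP and 8.10 for HIP-R, which gives 1.26 CPM per mean TPM for HIP and 1.23 for HIP-R. The annotated exonic lengths are in the other order, 2050 bases for HIP and 2138 for HIP-R. Weighting each gene by its annotated exonic length left the difference in share at 24.0 percentage points. This would undo the division only if the authors had used these lengths. The log2 difference of the sum was then -0.09.

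**Figure D2:**
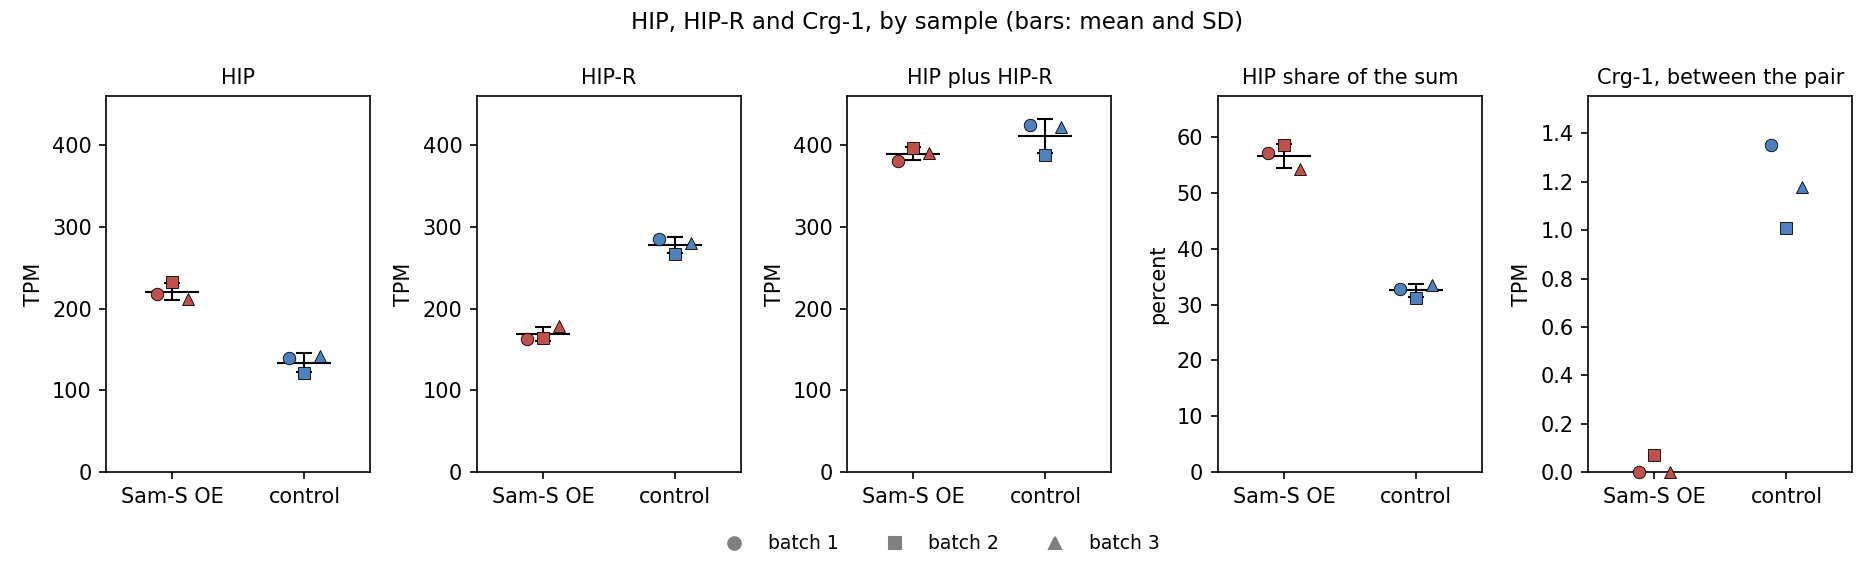
TPM of HIP, HIP-R, their sum and Crg-1, and the percentage of the sum that was HIP, in each sample; symbols give the batch, and bars the mean and SD of 3 samples (none for Crg-1). HIP lies at 212 to 232 TPM with overexpression, above all controls, HIP-R lies below all controls, and their sums overlap.

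Genes whose starts lie within 20 kb of HIP or HIP-R were examined next, 7 in all. Crg-1, between the pair, stood apart. It was listed at 0, 0.07 and 0 TPM in overexpression replicates 1, 2 and 3, against 1.35, 1.01 and 1.18 TPM in control replicates 1, 2 and 3. Every overexpression value lay below every control value. With a mean under 1 TPM it was outside the main test. Without the filter on low values, limma gave Crg-1 a log2 difference of -1.09 on the log2(TPM + 1) scale (SE 0.08, adjusted p = 0.00792, lower in 3 of 3 overexpression samples than in every control), a fit in which 0.107% of 12181 features were called. In the authors' deposited table its FDR was 4.20e-10, where 0.699% of all features had an FDR under 0.05. Both values are a description and not an independent test. Crg-1 was reached through a pair chosen for its differences, under rules set with earlier results known. It enters the unfiltered fit almost only through the controls, and its overexpression values lie at the floor, where spread is small. No fold is given, because Crg-1 is listed at 0 in 2 overexpression samples.

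The other 6 neighbours showed no such split. The counterpart forkhead gene, fd3F, was at 0.06, 0.05 and 0 TPM in overexpression ovaries and at 0, 0.07 and 0 TPM in controls. Neither CR44117 nor CR44118 had any signal, and the pseudogenes CR42499 and CR33221 never exceeded 0.09 TPM. The nearest gene downstream of fd3F, ec (echinus), was at 2.81, 1.99 and 1.75 TPM in overexpression ovaries, against 1.83, 2.32 and 1.76 TPM in controls, with overlapping values (limma, adjusted p = 0.968). From the start of HIP-R to ec, the groups did not overlap for HIP-R, Crg-1 and HIP and overlapped for the rest. Among the rest only ec was high enough to show a split, so no boundary can be read from them. HIP-R and HIP were chosen for their difference, and 11.9% of all tested features had groups that did not overlap. That share covers features with a mean of at least 1 TPM, which Crg-1 did not reach. The groups differ in the stock crossed to the driver as well as in Sam-S. For these genes, as in every comparison of the groups here, the stock and the overexpression cannot be told apart.

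The 6 chaperone genes added for their function did not show the pattern of the pair. The pair was chosen for its differences and these 6 were not, so this contrast was partly set by the choice. Among the 6, 0 were called by limma, where 0.28% of all tested features were, and 0 had an unadjusted p under 0.05, where 6.58% of all tested features did. With 6 genes, counts of 0 are near these shares. Each of the 6 had an FDR of 1 in the authors' deposited table. The groups overlapped for all 6, against the same 11.9% of tested features without overlap. Their log2 differences ran from -0.09 to 0.05, with 1 above and 5 below 0, around a median of -0.05. The median of all tested features was -0.01. Within batch 2 the log2 ratios of these 6 genes all lay above 0, from 0.01 for Hsp83 to 0.14 for STUB1.

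Hsc70-4, the main cytosolic Hsc70 and the direct partner of Hip, was at 4003.4, 3869.04 and 3780.4 TPM in overexpression ovaries, against 3690.34, 3829.34 and 3728.69 TPM in controls. The values overlapped at replicate 2 of the controls, and the log2 difference was 0.05 (95% interval -0.06 to 0.16). Hsc70-3, the BiP chaperone of the endoplasmic reticulum, was at 741.86, 754.15 and 738.21 TPM in overexpression ovaries, against 816.08, 727.03 and 833.34 TPM in controls. Its 3 overexpression values lay close together and inside the wider control range, and its log2 difference was -0.09 (95% interval -0.22 to 0.05). Hsc70-5, the mitochondrial Hsp70 known in mammals as mortalin, was at 235.89, 231.66 and 229.18 TPM in overexpression ovaries, against 240.89, 225.74 and 241.03 TPM in controls. All its overexpression values fell between the lowest and the highest control, with a log2 difference of -0.02 (95% interval -0.12 to 0.08).

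Hop, the adaptor between Hsp70 and Hsp90, was at 419.18, 460.02 and 455.28 TPM in overexpression ovaries, against 473.01, 424.91 and 471.8 TPM in controls. Batch 2 alone had the higher value in the overexpression sample, and the log2 difference was -0.04 (95% interval -0.17 to 0.10). Hsp83, the cytosolic Hsp90 of the fly, was at 3134.13, 3251.89 and 3114.06 TPM in overexpression ovaries, against 3401.14, 3232.7 and 3457.38 TPM in controls. Only overexpression replicate 2 reached above the lowest control, and the log2 difference was -0.09 (95% interval -0.20 to 0.03). STUB1 was at 132.2, 150.44 and 157.68 TPM in overexpression ovaries, against 161.66, 136.88 and 159.1 TPM in controls, with a log2 difference of -0.06 (95% interval -0.25 to 0.14). Replicate 1 of the overexpression group was the lowest STUB1 value, and the rest of that group lay inside the control range. The interval of STUB1 was the widest of the 6, and all 6 intervals together spanned log2 differences from -0.25 to 0.16.

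**Figure D3:**
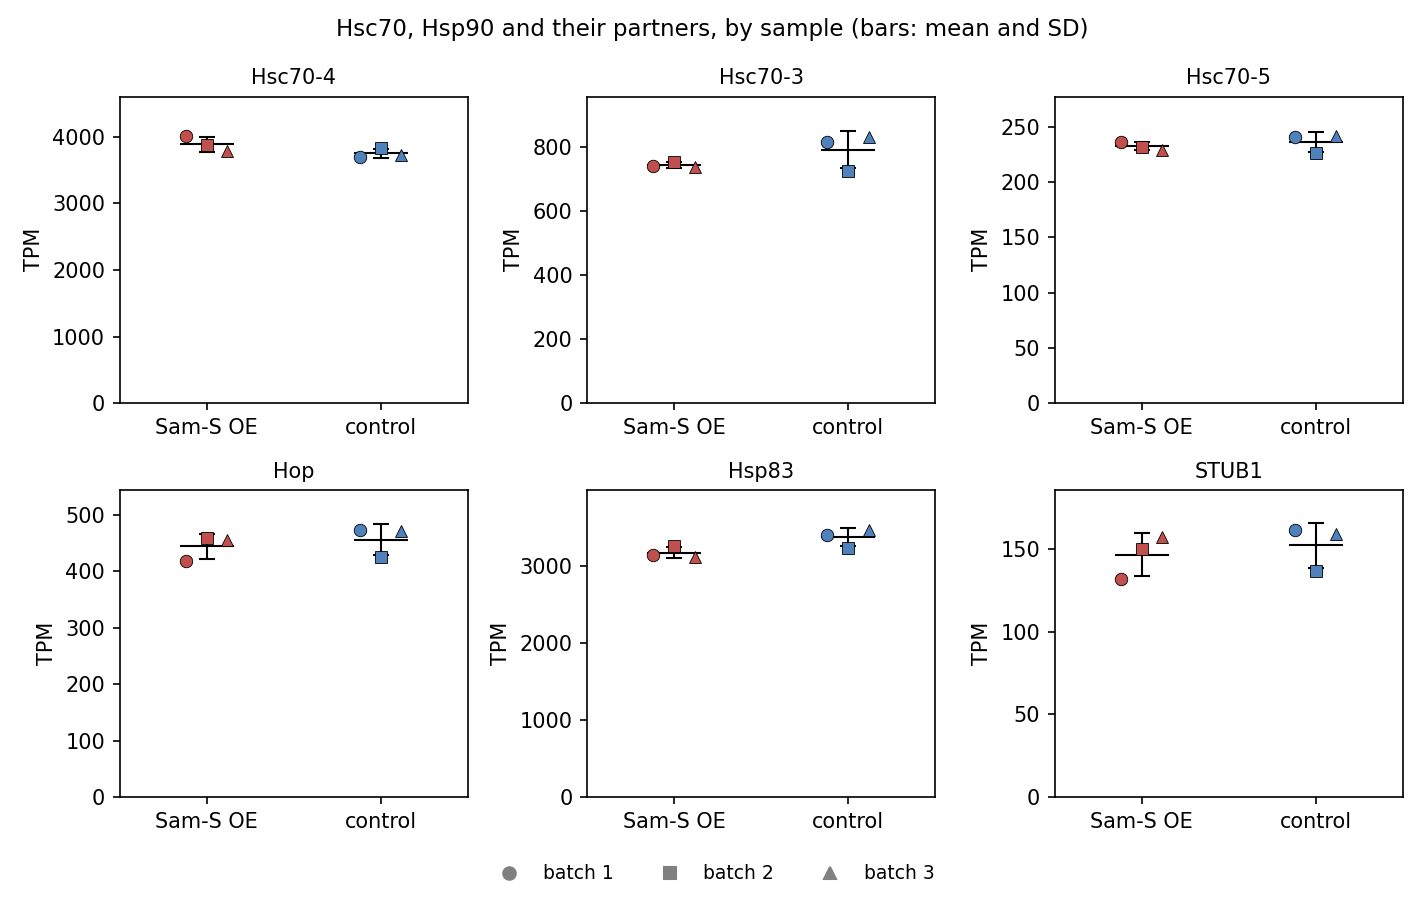
TPM of the 6 chaperone genes added for their function in each sample, with Sam-S overexpression left of control. Symbols give the batch, and bars the mean and SD of 3 samples. For each of the 6 genes the 2 groups overlap, and for 5 of them control replicate 2 is the lowest control.

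The order of the 8 levels was the same in all samples at the top: Hsc70-4, Hsp83, Hsc70-3, Hop. Below Hop the order differed between groups. In overexpression ovaries Hsc70-5 (232.2 ± 3.39 TPM) and HIP came next and overlapped, followed by HIP-R and then STUB1 (146.8 ± 13.1 TPM). In controls HIP-R came next, above Hsc70-5 (235.9 ± 8.79 TPM), and STUB1 (152.5 ± 13.6 TPM) and HIP came last and overlapped (SD, n = 3 each). HIP thus ranked 8 of 8 in every control and 5 or 6 in the overexpression samples. HIP-R ranked 5 in every control and 7 in every overexpression sample. This change of rank restates the differences for which the pair was chosen. Measured against its partner, Hsc70-4 was present at 9.97 ± 0.46 TPM per TPM of HIP plus HIP-R in overexpression ovaries and at 9.13 ± 0.65 in controls (SD, n = 3 each), with overlapping groups. The pair made up 4.33% ± 0.10 of the TPM of all 8 genes in overexpression ovaries and 4.49% ± 0.15 in controls (SD, n = 3 each).

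The wider chaperone network was followed in 5 lists, which named 73 genes. Of these, 71 were found in the table, and 63 passed the filter of a mean of at least 1 TPM. One list had a called gene. Among 31 J-domain proteins tested, 1 was lower and 0 were higher, where 0.102% of all tested features were lower and 0.178% higher. Of the 31, 9 had a difference above 0 and 22 below 0, with a median of -0.04. An unadjusted p under 0.05 in limma was found for 3 of them, where 6.58% of all tested features had one. For 6 of them the groups did not overlap, where 11.9% of all tested features had no overlap. The gene that fell was wus (wurst), a J-domain protein needed for clathrin-mediated endocytosis in the fly trachea. It was at 35.12, 33.83 and 35.88 TPM in overexpression ovaries, against 70.73, 71.04 and 72.4 TPM in controls (log2 difference -1.01, SE 0.05, limma adjusted p = 0.000138). Its groups lay far apart, and it was known to differ when the list was written. It is among both the 3 and the 6 counted above.

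The other 4 lists had 0 genes called by limma and 0 with an unadjusted p under 0.05, beside 0.28% and 6.58% of all tested features. Of 4 nucleotide exchange factors tested, all 4 had a log2 difference below 0, with a median of -0.04. Hsc70Cb, the Hsp110 that exchanges nucleotide on Hsp70, was at 361.8 ± 26.2 TPM in overexpression ovaries and 375.65 ± 22.2 TPM in controls, with overlapping values (SD, n = 3 each). Roe1, the mitochondrial GrpE, was at 150.2 ± 10.4 TPM in overexpression ovaries and 160.8 ± 7.60 TPM in controls (SD, n = 3 each). Of 14 other Hsp90 family and Hsp90 co-chaperone genes, 2 had a difference above 0 and 12 below, with a median of -0.04. The groups did not overlap for 1 of the 14, beside 11.9% of all tested features. The most abundant of them was CG16817, which RefSeq names p23, at 1135 ± 29.0 TPM in overexpression ovaries and 1147 ± 38.2 TPM in controls. It was followed by FKBP59, an immunophilin with TPR repeats, at 376.1 ± 16.0 TPM in overexpression ovaries and 386.9 ± 7.46 TPM in controls (SD, n = 3 each). The direction was not the same in every batch. Within batches 1, 2 and 3 the log2 ratio of TPM was -0.06, 0.07 and -0.06 for CG16817. For FKBP59 it was -0.12, 0.06 and -0.06.

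Chaperonins, the ring-shaped folding machines, had 4 differences above 0 and 5 below among 9 genes tested, with a median of -0.0049 between -0.04 and 0.04. CCT2 of the cytosolic ring was at 668.8 ± 23.1 TPM in overexpression ovaries and 684.4 ± 17.1 TPM in controls, and the mitochondrial Hsp60A was at 545.6 ± 35.4 TPM in overexpression ovaries and 544.8 ± 22.3 TPM in controls (SD, n = 3 each). Across all 5 lists 16 differences were above 0 and 47 below, where 3459 of all 7855 tested features were above 0 and 4396 below. The lean of all tested features changed with the samples used. Their median log2 difference was -0.03 without control replicate 2 and 0.01 without overexpression replicate 1.

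**Figure D4:**
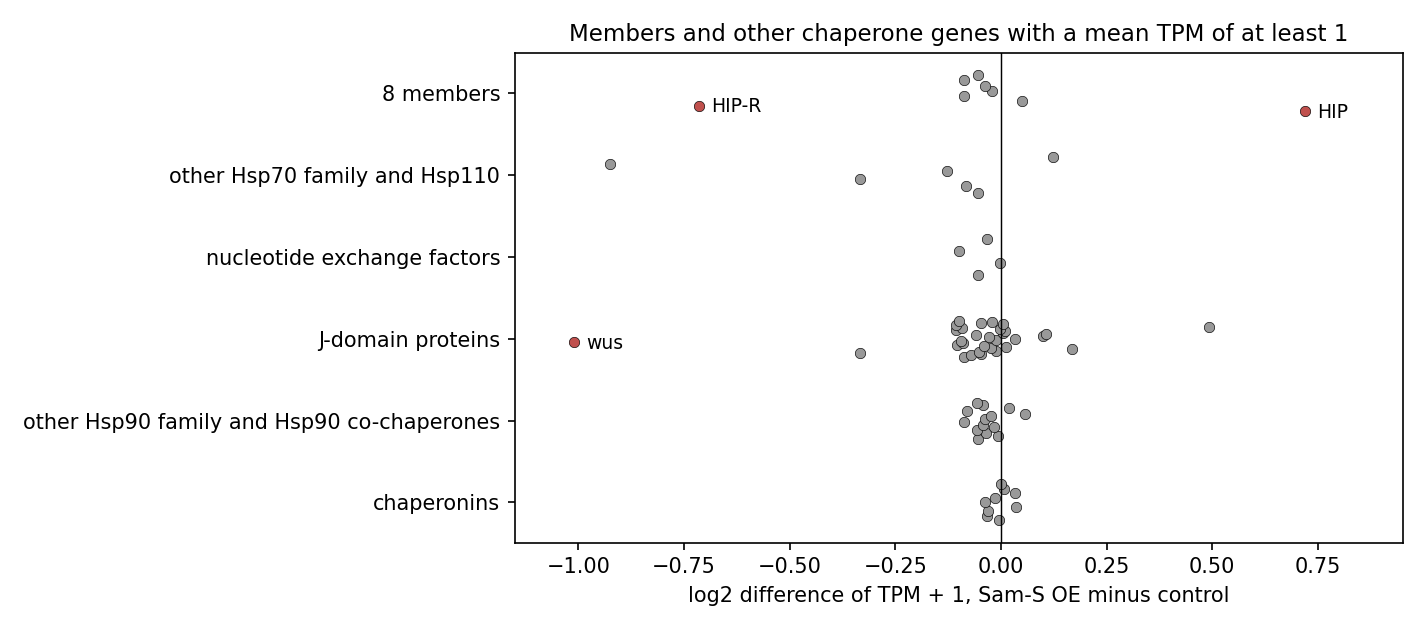
Log2 difference of TPM + 1, overexpression minus control, for each tested gene of the 8 members and the 5 chaperone lists; red points passed the limma threshold and are named. HIP and HIP-R stand on opposite sides at 0.72 and -0.71, wus is at -1.01, and most other points lie near 0, with an Hsp70 family gene at -0.92 and a J-domain gene at 0.49 that did not pass.

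Of 10 other Hsp70 family and Hsp110 genes, 6 were tested, with 1 difference above 0, 5 below and a median of -0.11. The inducible Hsp70 copies among them, which heat and other stress switch on, varied widely within groups. Reads from such near-identical genes may be split among them, which makes single levels uncertain. Hsp70Ab was at 79.38, 27.71 and 23.2 TPM in overexpression ovaries, against 29.49, 26.52 and 131.97 TPM in controls, so overexpression replicate 1 and control replicate 3 stood above the rest. Hsp68 was high in the same samples, at 15.78 and 18.22 TPM, against 1.72 to 2.02 TPM elsewhere. Without both libraries, the log2 difference was 0.77 for HIP and -0.68 for HIP-R, and that of their sum was -0.04.

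Features with the pattern most like each of the pair were ranked by Pearson's r of log2(TPM + 1) over the 6 samples. The r is a description of 6 values that share the split between the groups. Nearest to HIP were CG7408 (r = 0.996), CG17129 (r = 0.992) and Gbeta5 (r = 0.988). Nearest to HIP-R were the pseudogene swaPsi (r = 0.997), wus (r = 0.993) and CG12702 (r = 0.991). The r does not measure the size of a difference. For swaPsi the level was 5.27, 5.08 and 5.52 TPM in overexpression ovaries, against 11.85, 10.55 and 11.51 TPM in controls. Mean levels with overexpression and in controls were 7.01 and 3.84 TPM for CG7408 and 8.05 and 4.35 TPM for Gbeta5. They lay much closer for CG17129, at 34.3 and 32.2 TPM, and for CG12702, at 24.9 and 28.1 TPM. HIP and HIP-R had an r of -0.96 with each other, and 0.22 once the mean of each group was removed.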

How the data were processed

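Ovary polyA RNA was measured in 6 samples; Trizol extraction and TruSeq stranded libraries are named in the labels' protocols. The authors deposited TPM per sample, 1 column each, rounded to 2 decimals, with their own comparison as log2 fold change, mean log2 CPM, p-value and FDR, per the file headers. The submitters' processing notes name STAR; the counting, the build and the test behind that comparison are not given in the sources used here. Columns summed to between 999999.74 and 1000000.24 TPM, and 0 value columns lacked a sample. TPM holds no depth, so no interval from counts was computed.

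The 7855 features whose TPM averaged at least 1 over all samples were tested on log2(TPM + 1) with limma 3.58.1 in R 4.3.3 (eBayes with a trend, 1 group term, two-sided), adjusted by Benjamini-Hochberg over all of them and called under 0.05. A fold change on this scale understates low genes. The fit was tested on simulated data. Nothing in the labels says that the samples came from separate cultures of flies, so p-values measure the spread between these samples. Python 3.11.15 with pandas 2.3.3 did the rest, with matplotlib 3.10.9 for plots.

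In the labels the replicate number is also the batch, which pairs the samples; deviations of same-numbered samples correlated at -0.06, -0.06 and 0.21, against -0.02 on average for other numbers. Coordinates were compared with Ensembl release 115: 17125 of 17257 matched identifiers had the same position. The members, the lists and the rules were chosen with earlier results of these data known. Named genes were the members, called genes of each list or otherwise its 2 most abundant, features starting within 20 kb of the pair, and the 3 features most like HIP and HIP-R. The names Sil1 and zda were not matched.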

Additional observations from a re-analysis of the deposited data

How the results depend on the processing

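HIP and HIP-R were chosen on this contrast, and wus was known to differ, so their values over 13 alternative settings are given as a description. The log2 difference ran from 0.65 to 0.76 for HIP, from -0.76 to -0.69 for HIP-R and from -1.03 to -0.99 for wus. Leaving out each sample in turn, the log2 difference of the HIP plus HIP-R sum ran from -0.12 to -0.05. The share of HIP in that sum then lay 23.2 to 25.3 percentage points above control. With the replicate block the log2 difference stayed at 0.72 for HIP and -0.71 for HIP-R. In that setting 0 of the 6 genes added for their function were called. Of all tested features 16 were called, 5 of them lower. Some small differences among these 6 genes turned round. Hsc70-5 was at 0.0070 with quantile normalization. Leaving out each sample, Hop ran from -0.088 to 0.0051 and STUB1 from -0.13 to 0.018. Without overexpression replicate 1 and control replicate 3 together, a setting chosen after seeing the data, Hop was at 0.030 and STUB1 at 0.050. The count of 22 called features was 13 with no filter on low values, 3 of them lower, and 9 were higher without the trend. It ran from 11 (without control replicate 1) to 28 when 1 sample was left out, with 8 to 18 higher and 2 to 10 lower. In the chaperone lists 0 to 1 gene was called higher, CG32641 without control replicate 2. The cause was not tested. The unknown depth limits low genes such as Crg-1.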

Other observations

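In 2 cases 1 copy of a duplicated chaperone gene was listed at 0 throughout. No sequence was compared, and how reads that fit both copies were assigned is not stated. The level of each copy alone is therefore uncertain. Hsp70Aa was at 0 TPM in all 6 samples while Hsp70Ab reached 131.97 TPM. Likewise CG32640 was at 0 TPM in all 6 samples while CG32641, a J-domain gene of X named here after its values were seen, was at 76.16, 89.38 and 78.86 TPM in overexpression ovaries, against 51.53, 73.99 and 49.69 TPM in controls. The groups of CG32641 did not overlap, and its limma adjusted p was 0.476. DnaJ-H, also named after its values were seen, was at 68.01, 86.59 and 77.26 TPM in overexpression ovaries, against 98.51, 92.72 and 100.58 TPM in controls, with an unadjusted p of 0.00457 in limma and an adjusted p of 0.368.

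Control replicate 2 was the lowest control for 7 of the 8 members, all but Hsc70-4, for which it was the highest. Among overexpression samples, replicate 3 was the lowest for 5 members and replicate 1 for 3.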
